A study of Homo sapiens with 33 samples.

Results

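The genes described here encode the ATG8 proteins MAP1LC3A, MAP1LC3B, GABARAP, GABARAPL1 and GABARAPL2, the autophagy receptors SQSTM1 and NBR1, and the phosphoinositide-binding proteins WIPI1 and WIPI2. They were taken by gene name from 3 deposited tables of differential expression, and they make up 8 of the 13310 entries for total knockout in UM-UC-3, 9 of 14332 for total knockout in A-375 and 9 of 14160 for the knockout of the long form in A-375. MAP1LC3A was not analysed in UM-UC-3. The study deleted GABPB1, a subunit of the ETS-family transcription factor GABP, with Cas9 in UM-UC-3 cells, a human bladder carcinoma line, and in A-375 cells, a human melanoma line, and sequenced bulk RNA from clones grown from single edited cells. GABPB1 makes a long and a short protein, of which the long form can bring GABP dimers together into tetramers.

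In UM-UC-3, 9 libraries from 8 clones came from total knockout of GABPB1. Of these, 4 libraries from 4 clones carried a deletion of exons 2 to 9 and 5 libraries from 4 clones a deletion of exon 2. As controls, UM-UC-3 had 3 libraries from 3 clones cut at ROSA26, a locus whose disruption is tolerated, and 1 library of unedited parental cells. In A-375, 12 libraries from 9 clones came from total knockout of GABPB1. They were 4 libraries from 4 clones with the deletion of exons 2 to 9 and 8 libraries from 5 clones with the deletion of exon 2. A further 2 A-375 libraries from 2 clones had lost exon 9 and with it the long form alone. For A-375 there were 4 ROSA26 libraries from 3 clones and 2 parental libraries. Where libraries share a clone, their spread is partly technical, and p-values measure only the spread between these libraries. Each table carries the word parental for its controls, and nothing analysed here says whether ROSA26 libraries entered the fits, so every UM-UC-3 value may rest on a single control library. The A-375 comparisons may share controls, so their values are given side by side with no test between them.

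Autophagy encloses cytoplasm in a double membrane, the autophagosome, and delivers it to the lysosome for breakdown. ATG8 proteins are ubiquitin-like proteins that are joined to phosphatidylethanolamine on the growing membrane, and receptors such as SQSTM1 (p62) and NBR1 hold ubiquitinated cargo with one end and an ATG8 protein with the other. WIPI proteins read the phosphatidylinositol 3-phosphate made by the class III PI3-kinase complex, and WIPI2 recruits the machinery that conjugates ATG8 proteins there. MAP1LC3B, SQSTM1 and WIPI1 are transcribed at higher rates when MiT/TFE factors enter the nucleus, and SQSTM1 is also a target of NFE2L2.

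The values are the authors' fits, so each gene has a mean normalized count over the libraries of a comparison, a log2 fold change of knockout over control with its standard error, and a p-value adjusted over the whole table. A gene is said to have risen or fallen where that adjusted p was under 0.05. Values per library were not analysed here, so the spread of single libraries, and whether the groups overlap, cannot be shown. In bulk RNA, fewer cells of a type and less RNA per cell cannot be told apart. The deletions are visible in the authors' tables, by entries for each GABPB1 form. GABPB1L, the entry for the long form, had a log2 fold change of -12.60 ± 0.71 (SE) in UM-UC-3, -10.60 ± 0.70 in A-375 and -12.79 ± 1.47 in the long-form knockout in the authors' deposited tables. GABPB1S, the entry for the short form, was -9.86 ± 2.70 in UM-UC-3 and -9.81 ± 0.72 in A-375 total knockouts. Entries named for the loss of exon 2 rose in both total knockouts. GABPB1L-DEX2 rose by 11.82 ± 1.46 in UM-UC-3 and 13.61 ± 1.96 in A-375, and GABPB1S-DEX2 by 10.15 ± 1.62 and 12.36 ± 1.88. Total knockout thus does not mean that no GABPB1 RNA was left. In the authors' deposited table for the long-form knockout, GABPB1S had a log2 fold change of 13.95 ± 1.04. GABPB1S-DEX2, named for the loss of exon 2, was -12.00 ± 1.48 there. In the A-375 total knockout the same entries went the other way, at -9.81 and 12.36. The names of these entries may be swapped in the long-form comparison, which was not tested. These values thus do not show which form the controls held. GABPA, the DNA-binding subunit, rose by 1.43 ± 0.19 in UM-UC-3 and by 0.81 ± 0.22 in A-375 total knockouts, and was 0.28 ± 0.17 with an adjusted p of 0.552 in the long-form knockout, in the authors' deposited tables. GABPB2, another subunit gene of GABP, rose by 2.49 ± 0.20 in UM-UC-3 and by 1.81 ± 0.32 in A-375 total knockouts. It was 0.29 ± 0.26 with an adjusted p of 0.695 in the long-form knockout, in the authors' deposited tables.

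The 9 genes lie on 6 chromosomes of GRCh38, and RefSeq lists a promoter window, 250 bases before to 50 bases after the start site, for 8 of them, 12 windows in all. GABP binds an ETS core, searched here as CCGGAAG on both strands. The search also covered the E-box CACGTG bound by MiT/TFE factors, the antioxidant element core TGACNNNGC bound by NFE2L2 dimers, and TGACGTCA, the cAMP response element, which was added after these letters had been read. No pair of these motifs overlapped in a member's window. Printed here are the windows that held a match and that of WIPI1, which held none and belongs to the member with the largest fold change. Each is 5′ to 3′ on the gene's strand in build GRCh38.p14, and capitals mark the matches.
GABARAPL2, chr16:75566129-75566428, plus strand: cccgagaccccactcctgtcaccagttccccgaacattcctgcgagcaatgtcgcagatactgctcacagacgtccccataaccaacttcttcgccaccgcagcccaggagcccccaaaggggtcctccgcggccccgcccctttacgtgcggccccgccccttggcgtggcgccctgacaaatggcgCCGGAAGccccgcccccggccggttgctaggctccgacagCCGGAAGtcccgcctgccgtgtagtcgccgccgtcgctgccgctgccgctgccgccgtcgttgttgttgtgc
SQSTM1, window at the most upstream of its 3 listed starts, chr5:179806143-179806442, plus strand: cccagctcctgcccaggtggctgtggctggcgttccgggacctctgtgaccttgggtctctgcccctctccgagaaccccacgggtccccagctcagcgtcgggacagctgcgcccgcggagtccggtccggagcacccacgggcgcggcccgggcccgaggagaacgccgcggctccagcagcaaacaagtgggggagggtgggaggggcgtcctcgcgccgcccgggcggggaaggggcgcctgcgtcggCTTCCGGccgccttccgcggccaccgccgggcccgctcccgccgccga
GABARAPL1, chr12:10212627-10212926, plus strand: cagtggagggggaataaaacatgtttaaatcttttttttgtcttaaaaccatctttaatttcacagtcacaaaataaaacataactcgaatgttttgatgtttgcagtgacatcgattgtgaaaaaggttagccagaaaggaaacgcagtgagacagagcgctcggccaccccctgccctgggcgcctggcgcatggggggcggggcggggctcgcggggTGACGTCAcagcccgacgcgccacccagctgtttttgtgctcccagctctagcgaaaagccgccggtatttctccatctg
MAP1LC3B, chr16:87392086-87392385, plus strand: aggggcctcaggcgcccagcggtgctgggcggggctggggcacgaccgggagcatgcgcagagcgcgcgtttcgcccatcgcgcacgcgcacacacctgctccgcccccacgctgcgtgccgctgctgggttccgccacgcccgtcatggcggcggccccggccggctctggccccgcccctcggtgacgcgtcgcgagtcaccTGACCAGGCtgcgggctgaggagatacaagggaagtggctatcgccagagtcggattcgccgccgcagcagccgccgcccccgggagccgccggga
WIPI1, chr17:68457447-68457746, minus strand: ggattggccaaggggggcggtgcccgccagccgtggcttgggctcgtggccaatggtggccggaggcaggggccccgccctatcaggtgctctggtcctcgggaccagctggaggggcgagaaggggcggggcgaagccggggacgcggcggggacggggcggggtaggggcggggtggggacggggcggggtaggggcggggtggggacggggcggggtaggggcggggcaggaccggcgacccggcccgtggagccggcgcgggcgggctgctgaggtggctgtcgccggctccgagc

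The GABARAPL2 window held the ETS core at 62 and 22 bases before its start site. SQSTM1 held 1 core, on the opposite strand as CTTCCGG, 2 bases after its upstream start, and its other 2 windows held none. Over all 35116 RefSeq promoter windows, 10.3% held the ETS core and 1.74% held it 2 or more times. GABARAPL1 held TGACGTCA at 30 bases before the start, which 1.85% of all windows held. MAP1LC3B held the antioxidant element core as TGACCAGGC at 46 bases before the start, against 13.3% of all windows. The E-box was in 0 of the 12 windows, against 7.26% of all windows. A match is a description of the letters and not evidence of binding.

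In UM-UC-3 total knockouts of GABPB1, WIPI1, GABARAPL1 and NBR1 transcripts rose and GABARAPL2 fell. In A-375 total knockouts, SQSTM1, GABARAPL1 and MAP1LC3B rose and none of the 9 fell. GABARAPL1 was the member that passed in both lines, and the share of all genes that did so was not computed. Losing the long form alone moved none of the 9 past the threshold. In the authors' deposited table for UM-UC-3, 3 of the 8 members rose, beside 17.0% of all genes, and 1 fell, beside 14.2%. For the A-375 total knockout the authors' deposited table has 3 of 9 members higher, beside 5.07% of all genes, and 0 lower, beside 5.74%. The members were chosen with earlier results of these data known, so such counts and medians are no test of the set. In the long-form knockout 0 of 9 rose, beside 0.240% of all genes, and 0 fell, beside 0.664%, in the authors' deposited table made with DESeq2, and 0 of the 9 had an unadjusted p under 0.05. The median log2 fold change of the members was 0.27 in UM-UC-3, 0.30 in A-375 and 0.01 in the long-form knockout in the authors' deposited tables, while that of all genes was 0.03, -0.05 and 0.02 in the same order.

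**Figure D1:**
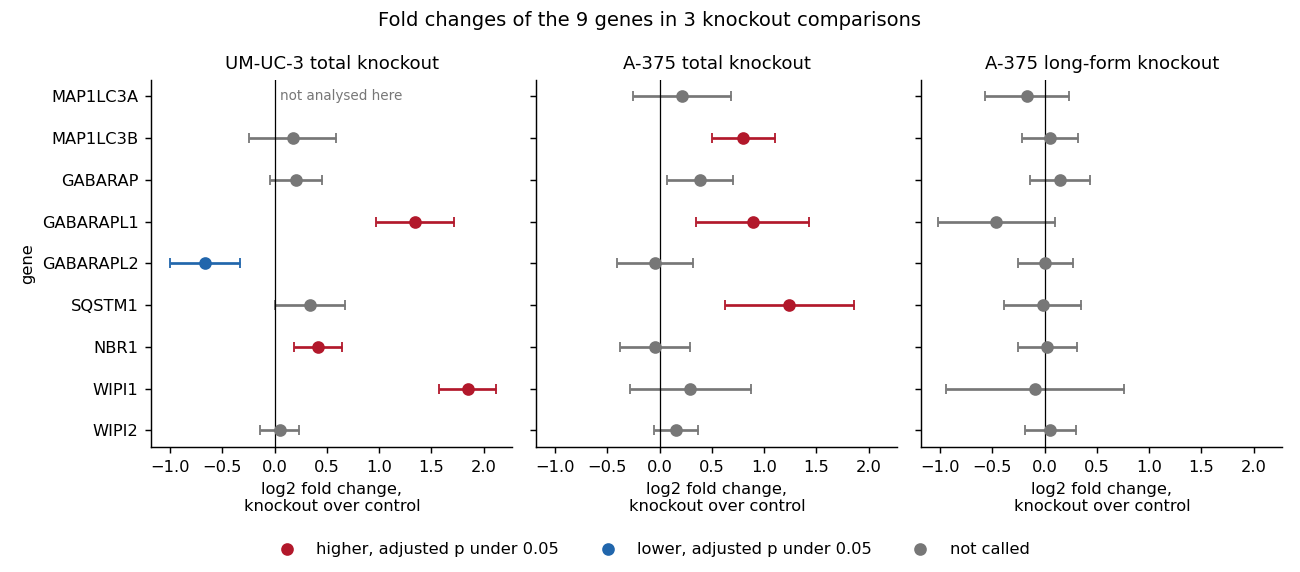
Log2 fold changes of knockout over control for each member in the 3 comparisons, from the authors' deposited tables, with bars for 95% intervals from the deposited standard errors. WIPI1 stands at 1.85 in UM-UC-3 and 0.30 in A-375, SQSTM1 at 0.34 and 1.24, and the 9 members of the long-form knockout lie between -0.46 and 0.15.

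GABARAPL1 codes for a GABARAP-subfamily protein that is induced on starvation in many cell types. Among the ATG8 members measured, 4 in UM-UC-3 and 5 in A-375, it had the largest fold change in both total knockouts. The authors' deposited tables give it a log2 fold change of 1.34 ± 0.19 (SE, adjusted p = 1.14e-10) in UM-UC-3 total knockouts, a 2.54-fold rise with a 95% interval of 1.97 to 3.28. In A-375 total knockouts it rose by 0.89 ± 0.27 (adjusted p = 0.0180), which is 1.85-fold with an interval of 1.28 to 2.69, in the authors' deposited table. In the long-form knockout its log2 fold change was -0.46 ± 0.29 (adjusted p = 0.552) per the authors' deposited table, with an interval of -1.02 to 0.10. The deposited mean and fold change together imply the level in each group, as a range because the number of control libraries is unknown. GABARAPL1 comes to 799 to 923 normalized counts in UM-UC-3 knockout libraries, against 315 to 364 in controls, and to 1343 to 1483 in A-375 total knockout libraries, against 725 to 800 in controls, from the authors' deposited tables. Its window on chromosome 12, printed above, holds the cAMP response element and no ETS core. The A-375 rise of GABARAPL1 had an adjusted p of 0.294 when tested against a log2 fold change of 0.25, computed from the authors' deposited table. Reads of GABARAPL1 and of its near-identical retrocopy GABARAPL3 may be shared, and the sources do not say how the authors' counting split them.

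GABARAPL2 (GATE-16), which also acts in transport through the Golgi, was the member that fell, and it fell in UM-UC-3. Its log2 fold change there was -0.66 ± 0.17 (adjusted p = 0.000875) per the authors' deposited table, a level 0.631 times the control with an interval of 0.501 to 0.796. The implied levels were 1033 to 1152 normalized counts in UM-UC-3 knockout libraries and 1637 to 1825 in controls, from the authors' deposited table. In A-375 its log2 fold change was -0.04 ± 0.19 (adjusted p = 0.909) after total knockout and 0.01 ± 0.13 (adjusted p = 0.987) after long-form knockout in the authors' deposited tables. The 2 ETS cores in its window are given above. When tested against a log2 fold change of 0.25 in place of 0, the UM-UC-3 fall of GABARAPL2 had an adjusted p of 0.127, computed from the authors' deposited table.

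MAP1LC3B, the LC3 protein most often used to mark autophagosomes, rose in A-375 total knockouts by 0.80 ± 0.15 (adjusted p = 2.43e-05), or 1.74-fold with an interval of 1.42 to 2.14, in the authors' deposited table. Its implied level was 3104 to 3398 normalized counts in A-375 knockout libraries and 1781 to 1949 in controls, from the authors' deposited table. For UM-UC-3 it was 0.17 ± 0.21 (adjusted p = 0.573) and in the long-form knockout 0.05 ± 0.14 (adjusted p = 0.913) per the authors' deposited tables. MAP1LC3B2, a near-identical copy with a mean of 124 normalized counts in A-375, had a log2 fold change of 0.99 ± 0.43 (adjusted p = 0.115) there in the authors' deposited table, so reads shared between the copies make the split between them uncertain. GABARAP, the most abundant ATG8 transcript per kilobase in both lines, was 0.20 ± 0.13 (adjusted p = 0.210) in UM-UC-3 and 0.39 ± 0.16 (adjusted p = 0.0999) in A-375 total knockouts in the authors' deposited tables. MAP1LC3A, a close relative of MAP1LC3B, was 0.22 ± 0.24 (adjusted p = 0.606) in A-375 total knockouts and -0.17 ± 0.20 (adjusted p = 0.780) in long-form knockouts in the authors' deposited tables.

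SQSTM1 had the highest level of the members in every comparison, and the authors' deposited tables give it means of 39192 normalized counts in UM-UC-3 and 14253 in the A-375 total knockout comparison. These 2 means are on different scales and do not measure a difference between the lines. It rose in A-375 total knockouts by 1.24 ± 0.32 (adjusted p = 0.00275), or 2.36-fold with an interval of 1.54 to 3.63, in the authors' deposited table. The implied levels were 15534 to 17647 normalized counts in A-375 knockout libraries and 6573 to 7467 in controls, from the authors' deposited table. For UM-UC-3 the log2 fold change was 0.34 ± 0.17 with an adjusted p of 0.121 in the authors' deposited table, while the q-value of the same table was 0.0490. Long-form loss gave -0.02 ± 0.19 (adjusted p = 0.979) per the authors' deposited table. The A-375 rise of SQSTM1 had an adjusted p of 0.0635 when tested against a log2 fold change of 0.25, from the authors' deposited table. SQSTM1 shares 1582 of its 7654 exon bases with MRNIP on the opposite strand. The authors' deposited table, which lists MRNIP as C5orf45, gives that gene a log2 fold change of -0.23 ± 0.32 (adjusted p = 0.696) and a mean of 94.7 normalized counts in A-375, far below SQSTM1. MGAT4B, also on the opposite strand, shares 105 of the SQSTM1 exon bases. Its mean was 4257 normalized counts and its log2 fold change 0.33 ± 0.17 (adjusted p = 0.190) in A-375 total knockouts, in the authors' deposited table.

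NBR1, the older relative of SQSTM1 that shares its ubiquitin-binding and ATG8-binding parts, rose in UM-UC-3 by 0.41 ± 0.12 (adjusted p = 0.00232), or 1.33-fold with an interval of 1.14 to 1.56, in the authors' deposited table. Its implied level was 10622 to 11219 normalized counts in UM-UC-3 knockout libraries and 7969 to 8417 in controls, from the authors' deposited table. The 20 genes nearest to NBR1 on chromosome 17 had a median log2 fold change of 0.19 in the authors' deposited table, and with that median subtracted NBR1 was 0.23 with an adjusted p of 0.118. Tested against a log2 fold change of 0.25, NBR1 had an adjusted p of 0.627, computed from the authors' deposited table. In A-375 NBR1 was -0.04 ± 0.17 (adjusted p = 0.899) after total knockout and 0.03 ± 0.14 (adjusted p = 0.961) after long-form knockout in the authors' deposited tables.

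WIPI1 had the largest change of the members. In UM-UC-3 total knockouts it rose by 1.85 ± 0.14 (adjusted p = 4.37e-37), or 3.60-fold with an interval of 2.98 to 4.34, in the authors' deposited table, where it ranked 4 of 13310 by the size of the Wald statistic. The implied levels were 1156 to 1378 normalized counts in UM-UC-3 knockout libraries and 321 to 383 in controls, from the authors' deposited table. In A-375 it was 0.30 ± 0.29 (adjusted p = 0.561) after total knockout, with implied levels of 707 to 734 normalized counts in knockout libraries and 576 to 598 in controls, in the authors' deposited table. The long-form knockout gave -0.09 ± 0.43 (adjusted p = 0.955) per the authors' deposited table, and its interval of -0.94 to 0.76 is the widest of the 9. The 20 nearest genes on chromosome 17 had a median log2 fold change of 0.14 in the authors' deposited table for UM-UC-3. WIPI1 shares 828 of its 3402 exon bases with ARSG on the opposite strand, and ARSG was -0.07 ± 0.18 (adjusted p = 0.814) in UM-UC-3 and 0.97 ± 0.67 (adjusted p = 0.365) in A-375 in the authors' deposited tables. Whether the counting used strand was not stated, so reads of these overlapping genes may be mixed. Its window, printed above, was 79.7% G and C, against a median of 58.7% over all promoter windows.

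WIPI2, which recruits ATG16L1 to the forming autophagosome, passed in none of the 3 comparisons. Its log2 fold change was 0.05 ± 0.10 (adjusted p = 0.737) in UM-UC-3, with an interval of -0.14 to 0.24, in the authors' deposited table. In A-375 it was 0.16 ± 0.11 (adjusted p = 0.346) after total knockout and 0.05 ± 0.13 (adjusted p = 0.897) after long-form knockout in the authors' deposited tables.

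**Figure D2:**
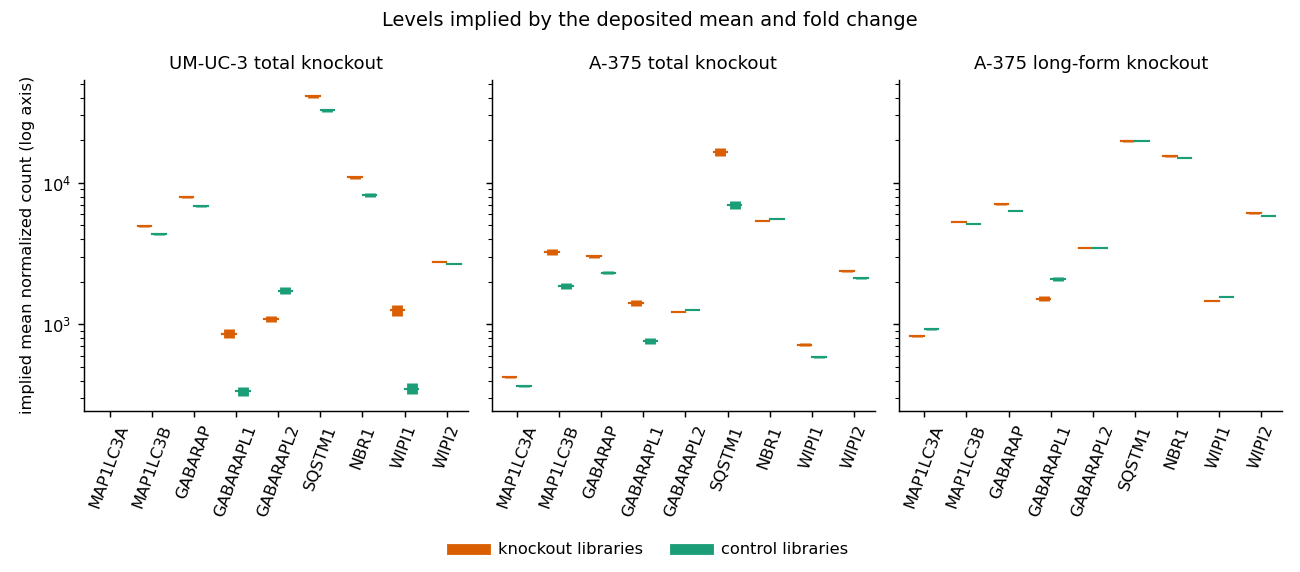
Mean normalized counts (log axis) in knockout and control libraries, implied by the authors' deposited mean and fold change, with each block spanning the numbers of control libraries that the labels allow and a thin line at its middle. In UM-UC-3 the WIPI1 blocks lie at 1156 to 1378 in knockout and 321 to 383 in control libraries, and MAP1LC3A was not analysed there.

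Divided by the length of the longest coding transcript, the order of the mean levels in the UM-UC-3 comparison was SQSTM1 at 13125 normalized counts per kilobase, GABARAP at 4707, NBR1 at 2224, MAP1LC3B at 1789, GABARAPL2 at 1217, WIPI2 at 612, WIPI1 at 585 and GABARAPL1 at 327, from the authors' deposited table. For the A-375 total knockout comparison the order was SQSTM1 at 4773 per kilobase, GABARAP at 1751, GABARAPL2 at 1230, NBR1 at 1167, MAP1LC3B at 1084, GABARAPL1 at 547, WIPI2 at 517, WIPI1 at 376 and MAP1LC3A at 261, from the authors' deposited table. SQSTM1 and GABARAP thus headed both orders. These means pool knockout and control libraries, and with no spread over libraries neighbours in the order cannot be separated.

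A gene called in one line and not in the other is not thereby shown to respond differently, so the difference between the lines was tested itself, as the UM-UC-3 minus the A-375 log2 fold change, over 12641 genes. Of the 8 members in both tables, WIPI1 passed, and 10.4% of all genes did. The WIPI1 difference was 1.55 ± 0.32 (SE, adjusted p = 0.000284) with an interval of 0.92 to 2.19, computed from the authors' deposited tables. SQSTM1 had the largest difference toward A-375, at -0.91 ± 0.36 with an interval of -1.61 to -0.20, and an adjusted p of 0.0793 did not pass. MAP1LC3B at -0.63 ± 0.26 (adjusted p = 0.0964), GABARAPL2 at -0.62 ± 0.25 (adjusted p = 0.0889) and NBR1 at 0.46 ± 0.21 (adjusted p = 0.133) did not pass either. GABARAPL1, which rose in both lines, differed by 0.45 ± 0.33 (adjusted p = 0.40), with an interval of -0.20 to 1.11. GABARAP at -0.18 ± 0.20 and WIPI2 at -0.11 ± 0.14 had the smallest differences. The median SE of all genes was 0.179 in UM-UC-3 and 0.278 in A-375 in the authors' deposited tables.

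**Figure D3:**
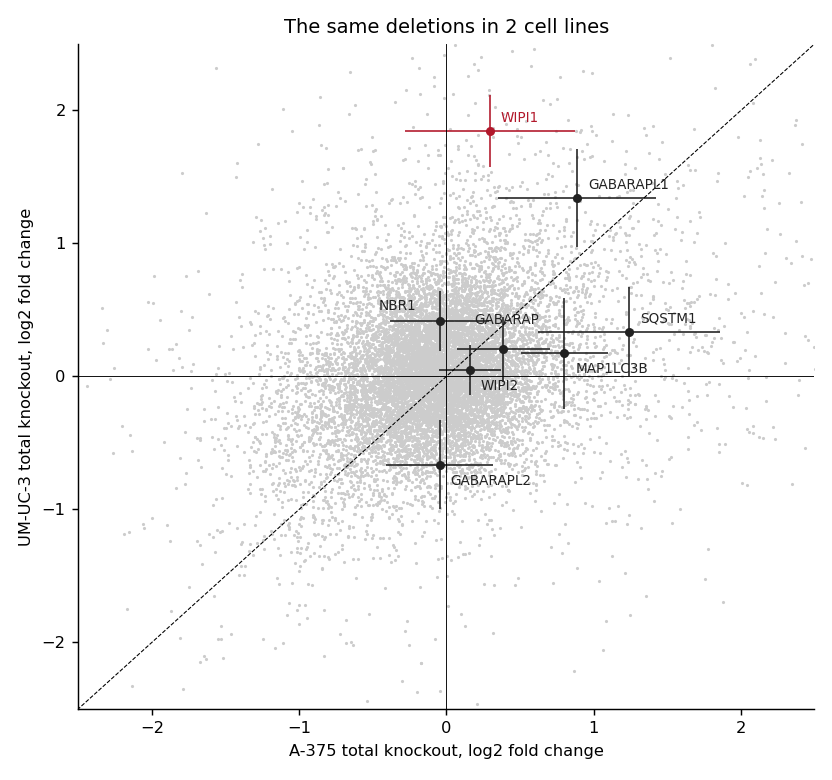
Log2 fold changes of total knockout over control in UM-UC-3 (vertical) and A-375 (horizontal) from the authors' deposited tables, with grey points for all genes that fall within the axes, bars for 95% intervals and a dashed line at equal change. WIPI1, in red, is the member whose difference passed, at 1.85 in UM-UC-3 and 0.30 in A-375, and GABARAPL1, which rose in both lines, is at 1.34 and 0.89.

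The rest of the pathway was read from 7 lists of 54 genes, chosen with earlier results of these data known. Of the 50 measured in UM-UC-3, 16 rose (32.0%), beside 17.0% of all genes, and 4 fell, beside 14.2%, in the authors' deposited table. Of the 52 measured in A-375, 6 rose (11.5%), beside 5.07% of all genes, and 0 fell, beside 5.74%, in the authors' deposited table. NCOA4, the receptor for ferritin, and TOLLIP, a receptor for ubiquitinated cargo, were the 2 that rose in both lines. The share of all genes that rose in both lines was not computed, so this count has no baseline. The long-form knockout had 0 of 52 higher and 0 lower in the authors' deposited table. Median log2 fold changes over these genes were 0.18, 0.11 and 0.01 for UM-UC-3, A-375 and the long-form knockout in the authors' deposited tables.

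The class III PI3-kinase complex, which makes the lipid that WIPI proteins read, had 4 of 8 genes higher in UM-UC-3, beside 17.0% of all genes, and 0 of 8 in A-375, beside 5.07%, in the authors' deposited tables. ATG14, which brings the complex to autophagosome formation sites, rose by 1.07 ± 0.19 (adjusted p = 3.63e-07) in UM-UC-3 in the authors' deposited table. In the same authors' deposited table NRBF2, a regulatory subunit, rose by 0.63 ± 0.15, the scaffold BECN1 by 0.55 ± 0.11 and UVRAG, the subunit of the endosomal form, by 0.53 ± 0.18. The UM-UC-3 minus A-375 difference was 1.04 (adjusted p = 0.00530) for ATG14, 0.91 (adjusted p = 0.00643) for UVRAG and 0.52 (adjusted p = 0.0251) for BECN1, computed from the authors' deposited tables. Over the 7 lists, 50 genes were tested for this difference and 7 passed, 5 of them more positive in UM-UC-3 and 2 more negative, while 10.4% of all genes passed. The others that were more positive were RETREG1 at 2.52 (adjusted p = 0.000120) and CCPG1 at 0.98 (adjusted p = 0.0202), and the more negative were ATG101 at -0.71 (adjusted p = 0.0350) and YKT6 at -0.39 (adjusted p = 0.00871), computed from the authors' deposited tables. Among 13 other receptors, 8 rose, beside 17.0% of all genes, and 1 fell, beside 14.2%, in UM-UC-3, and 2 rose in A-375, beside 5.07%, in the authors' deposited tables. RETREG1, a receptor for endoplasmic reticulum listed as FAM134B, rose by 2.52 ± 0.33 (adjusted p = 4.47e-12) in UM-UC-3, and CCPG1, another receptor of that organelle, by 1.06 ± 0.21 (adjusted p = 9.03e-06), per the authors' deposited table. CALCOCO1 rose by 0.46 ± 0.15 (adjusted p = 0.0119) in UM-UC-3 in the authors' deposited table. RTN3, also a receptor for endoplasmic reticulum, fell by 0.35 ± 0.12 (adjusted p = 0.0136) in UM-UC-3 in the authors' deposited table. NCOA4 rose by 0.27 ± 0.09 in UM-UC-3 and by 0.40 ± 0.11 in A-375, and TOLLIP by 0.32 ± 0.11 and by 0.51 ± 0.18, in the authors' deposited tables.

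Of the enzymes that process and conjugate ATG8 proteins, 2 of 10 rose and 1 fell in UM-UC-3 and 1 of 10 rose in A-375 in the authors' deposited tables, near the 17.0% and 14.2% of all genes that rose and fell in UM-UC-3 and the 5.07% that rose in A-375. In UM-UC-3 the ubiquitin-like ATG12 rose by 0.37 ± 0.12 and the ATG8 protease ATG4D by 0.47 ± 0.17, and the protease ATG4B fell by 0.37 ± 0.14, in the authors' deposited table. ATG4A, a protease with a preference for the GABARAP subfamily, rose by 0.59 ± 0.19 in A-375 in the authors' deposited table. In the initiation kinase complex 1 of 4 genes rose in UM-UC-3, the scaffold RB1CC1 at 0.45 ± 0.17, and 1 of 5 in A-375, ATG101 at 0.74 ± 0.20, in the authors' deposited tables. Among 5 genes of membrane supply and lipid transfer, the lipid scramblase TMEM41B rose by 0.48 ± 0.18 in UM-UC-3 and the lipid transfer protein ATG2A by 0.60 ± 0.14 in A-375 in the authors' deposited tables. Of the fusion genes 2 of 7 fell in UM-UC-3, the SNARE YKT6 by 0.34 ± 0.09 and TECPR1 by 0.42 ± 0.15, while 1 of 8 rose in A-375, the late endosome GTPase RAB7A at 0.50 ± 0.12, in the authors' deposited tables. The other ATG8 and WIPI family genes measured, MAP1LC3B2, WDR45 and WDR45B, had 0 of 3 called in both total knockouts in the authors' deposited tables. For the initiation, membrane and fusion lists too, counts of 1 or 2 genes are to be read against those shares of all genes.

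**Figure D4:**
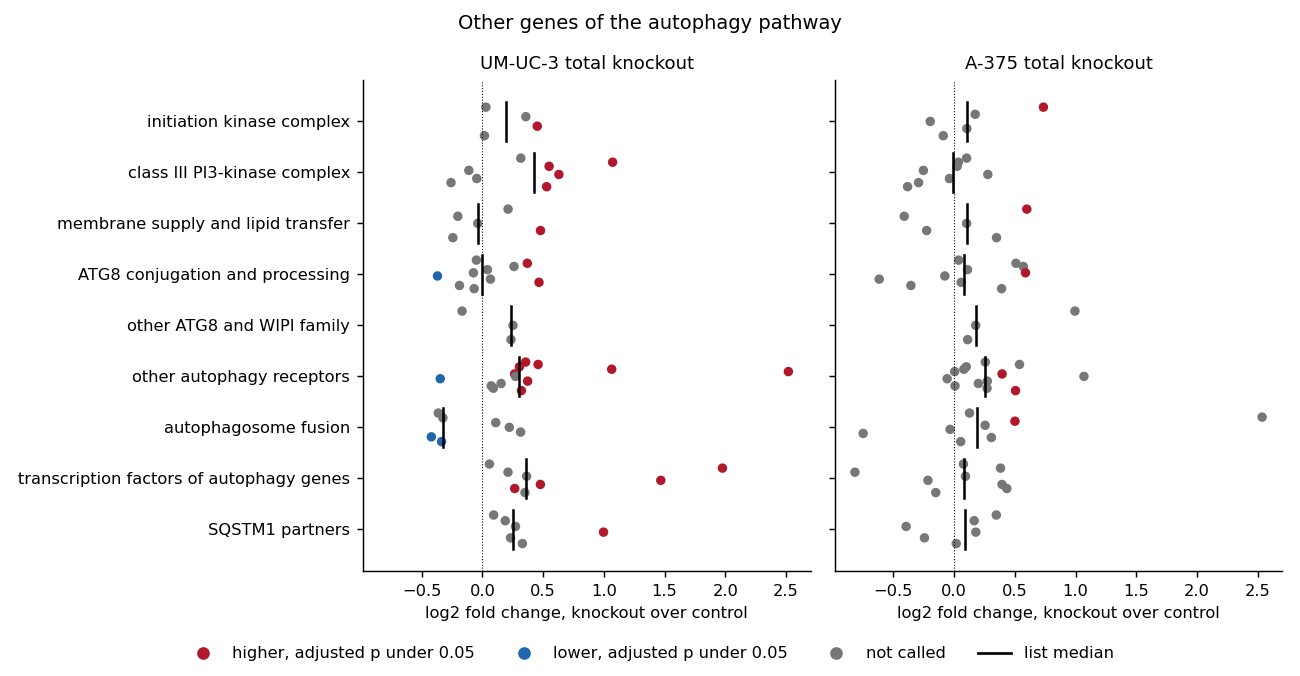
Log2 fold changes of the genes of each list in the UM-UC-3 and A-375 total knockouts, from the authors' deposited tables, 1 point per gene with called genes coloured and a line at each list's median. The class III PI3-kinase complex has 4 of 8 genes called higher in UM-UC-3, where 17.0% of all genes were, and 0 of 8 in A-375, where 5.07% were.

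Of 8 transcription factors that act on autophagy genes, 4 rose in UM-UC-3, beside 17.0% of all genes, and 0 in A-375, beside 5.07%, in the authors' deposited tables. These factors too were chosen with earlier results of these data known, so the counts are no test of the set. DDIT3 (CHOP), a factor of the integrated stress response, rose by 1.98 ± 0.25 (adjusted p = 4.91e-13) in UM-UC-3 in the authors' deposited table, and its line difference was 1.60 (adjusted p = 0.0150). MITF, the melanocyte member of the MiT/TFE family, rose by 1.47 ± 0.30 (adjusted p = 2.37e-05) in UM-UC-3 and was -0.22 ± 0.46 (adjusted p = 0.809) in A-375 in the authors' deposited tables, a difference of 1.68 ± 0.55 (adjusted p = 0.0296). TFE3 rose by 0.27 ± 0.08 in UM-UC-3 and was 0.43 ± 0.25 (adjusted p = 0.255) in A-375, and TFEB was 0.35 ± 0.23 (adjusted p = 0.246) and -0.15 ± 0.29 (adjusted p = 0.782), per the authors' deposited tables. NFE2L2, which drives SQSTM1, rose by 0.48 ± 0.14 (adjusted p = 0.00316) in UM-UC-3 and was 0.39 ± 0.20 (adjusted p = 0.191) in A-375, in the authors' deposited tables. Among 6 partners of SQSTM1, 1 rose in UM-UC-3, near the 17.0% of all genes that rose, in the authors' deposited table. It was the kinase PRKCZ, which rose by 1.00 ± 0.23 (adjusted p = 0.000167). In A-375, 0 of the 6 were called, beside 5.07% of all genes higher and 5.74% lower, in the authors' deposited table. The kinase PRKCI passed the test of the difference between lines, at 0.67 (adjusted p = 0.00915), and was called in neither line, computed from the authors' deposited tables. Transcript levels of these factors do not show where the proteins lie in the cell.

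The labelled lines were checked against markers. The A-375 total knockout table of the authors, deposited with 5 of 8 melanoma markers, has SOX10 at a mean of 14704 and CSPG4 at 30709 normalized counts, against 93.6 and 243 for UM-UC-3 in the authors' deposited tables. PMEL, a pigment-cell marker, had a mean of 20.1 in A-375 in the authors' deposited table, and MLANA, DCT and TYR were not analysed in that comparison. UM-UC-3 had KRT18 at 8029, KRT8 at 2449, GATA3 at 195 and KRT7 at 133 normalized counts in the authors' deposited table, while KRT19, EPCAM, TP63 and UPK2 were not analysed in either line. A-375 also had KRT18 at 4835, KRT8 at 1064, GATA3 at 101 and KRT7 at 79.4 in the authors' deposited table. Means of the lines are on different scales, and none of these markers sets UM-UC-3 apart from A-375. In UM-UC-3 knockouts 2 of 6 melanoma markers rose, MITF and DCT, beside 17.0% of all genes, per the authors' deposited table. DCT, an enzyme of melanin synthesis, was up by 2.20 ± 0.54 (adjusted p = 0.000504). Of 4 urothelial and epithelial markers there, 2 rose, beside 17.0% of all genes, and 1 fell, beside 14.2%. KRT7 rose by 0.93 ± 0.30, GATA3 by 0.58 ± 0.24, and KRT18 fell by 0.67 ± 0.20, in the authors' deposited table. These moved in the same comparison as WIPI1 and GABARAPL1, and their part in those results was not tested.

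Because GABARAPL2 and SQSTM1 carry ETS cores in their windows and were called in opposite directions, in different lines, the calls of all genes were counted by the number of cores, as a description with no test. A gene with several windows was classed by the window with the most cores, so genes with more listed starts had more windows to hold a core. In UM-UC-3, 12.2% of the 7657 genes with no core fell, 21.1% of the 1756 with 1 core and 30.8% of the 425 with 2 or more, in the authors' deposited table matched to RefSeq promoters. The shares that rose in UM-UC-3 were 18.7%, 13.6% and 7.06% in the same order in the authors' deposited table. GABARAPL2 is among the genes with 2 or more cores that fell. In A-375, 4.76%, 9.26% and 11.5% of genes with 0, 1 and 2 or more cores fell and 5.58%, 3.03% and 3.91% rose in the authors' deposited table, and SQSTM1 is among those with 1 core that rose. In the long-form knockout the shares that fell were 0.549%, 0.387% and 0.696% in the authors' deposited table. Base composition and level were not compared between these classes of genes.

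**Figure D5:**
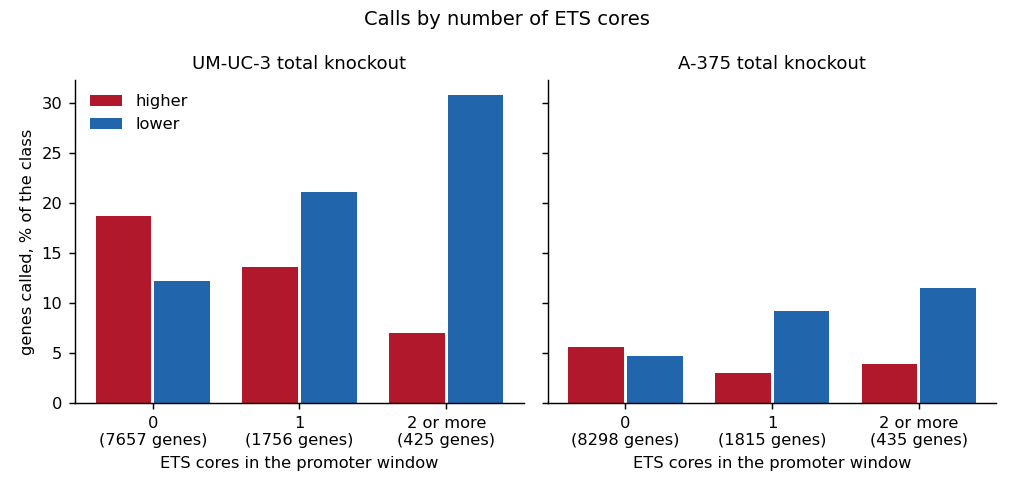
Percentage of genes called higher and lower in both total knockouts, by the number of ETS cores (CCGGAAG, both strands) in the RefSeq promoter window, from the authors' deposited tables. A gene with several windows is classed by the window with the most cores. The share that fell is 12.2% with no core and 30.8% with 2 or more in UM-UC-3, and 4.76% and 11.5% in A-375.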

How the data were processed

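RNA-seq of 33 libraries, 13 of UM-UC-3 and 20 of A-375 cells, was read as 3 result tables that the authors deposited, 1 per comparison. The submitters' processing notes name HISAT2, SAMtools, StringTie, DESeq2 and the hg38 build, with no roles, and strand setting, gene filter and design formula were not stated in them. Per the file headers, the authors' tables hold the mean normalized count (a signal per gene over libraries, total depth unknown), the log2 fold change and its standard error, the Wald statistic (a score), and the p-value, Benjamini-Hochberg adjusted p and q-value. No per-sample columns were left unmapped (0). Depth per library, and so counting error, cannot be given.

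The authors' adjusted p under 0.05 was the test. Intervals are 95% from the deposited SE. Line differences used a normal test of the 2 log2 fold changes, 2-sided, adjusted over genes whose mean reached 10 in each table. Implied levels assume the fold change applies to group means. The members, and the lists of pathway genes, transcription factors, partners and markers, were chosen with earlier results of these data known. Named were all members and, of each list, up to 4 called genes per table with the smallest adjusted p, and MITF, TFEB, TFE3 and NFE2L2. RTN3, PRKCI, NCOA4 in UM-UC-3, and genes that overlap or copy a member were named after their values were seen. RUBCN and RETREG1 were found under older names by RefSeq synonyms. Gene places came from GENCODE release 29 and promoters from RefSeq. Scripts used Python 3.11.15, pandas 2.3.3, numpy 2.4.6, scipy 1.17.1 and matplotlib 3.10.9 and were tested on simulated data.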

Additional observations from a re-analysis of the deposited data

Results flagged for a closer look

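The fold change of WIPI1 differed between the lines in the deposited fits, where UM-UC-3 values may rest on a single control library. The UM-UC-3 minus the A-375 log2 fold change was 1.55 ± 0.32 (SE, adjusted p = 0.000284 by the test of the difference over 12641 genes), from 1.85 ± 0.14 in UM-UC-3 and 0.30 ± 0.29 in A-375 total knockouts in the authors' deposited tables. It ranked 78 by the size of the test statistic.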

How the results depend on the processing

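No paired analysis was possible because the values are fitted per comparison and not per library. For the same reason another normalization and leaving out each replicate were not run. Tested against a log2 fold change of 0.25, the members called numbered 2 in UM-UC-3, where GABARAPL2 and NBR1 no longer passed, and 1 in A-375, where GABARAPL1 (adjusted p = 0.294) and SQSTM1 no longer passed. Of 214 alternatives over 34 single-gene results, 6 lost the call, 2 gained it, and 6 turned the sign of a value that was not called under either setting. With the table centred on its median, GABARAPL2 and NBR1 in A-375 became 0.0083 and 0.0079, and GABARAPL2 in the long-form knockout -0.0072. With the neighbour median subtracted, GABARAP in UM-UC-3 became -0.029, GABARAPL2 in A-375 0.056 and SQSTM1 in the long-form knockout 0.0064. The other 200 kept direction and call, but many of them could not do otherwise. The mean filters, the q-value, the stricter threshold and the test against 0.25 leave the fold change itself as it was. For a value not called, the stricter threshold and the test against 0.25 could not give a call. The count of 200 is therefore no measure of robustness. GABARAPL1 in A-375 also did not pass at an adjusted p under 0.01. With the median of its 20 chromosomal neighbours subtracted, an alternative added after seeing the data, WIPI2 in A-375 was 0.33 with an adjusted p of 0.0262. The WIPI1 difference passed under every centring, filter and threshold run.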
